A study of Homo sapiens with 16 samples.

Results

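UACC62R is a human melanoma cell line that its submitters made resistant to vemurafenib, an inhibitor of the kinase BRAF, and the comparison described here is its RNA after 24 h in 10 uM CCG-222740 against its RNA without treatment. It rests on 4 of the series' 16 libraries, 2 untreated (0 h) and 2 treated, taken by their labels, and covers all genes. The other libraries are UACC62R after 2 and 6 h in the compound and the parental line UACC62P at the same 4 times, with 2 libraries in each of 8 groups. The labels give 2 months of resistance selection for the UACC62R libraries, untreated and treated. A dose of 2 uM vemurafenib, with culture in that drug thereafter, is given in the text of the untreated libraries alone. Vemurafenib in the medium of the treated libraries: not given in the sources used here. Seeding into smaller plates is described for the treated libraries alone, and a vehicle is named as a control but no vehicle library was used here. Compound, vehicle, vemurafenib and any handling that the label texts leave unequal therefore cannot be told apart in any difference below. The labels do not say whether the 2 libraries of a group came from separate cultures, so p-values measure the spread between these libraries, which may be technical.

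CCG-222740 is known as an inhibitor of transcription driven by MRTF. MRTFA and MRTFB are coactivators held in the cytoplasm by monomeric actin; when actin is drawn into filaments they enter the nucleus and, with the DNA-binding factor SRF, switch on genes of the actin cytoskeleton through a sequence called the CArG box. YAP and TAZ are another pair of coactivators that respond to the cytoskeleton and act through TEAD factors. In melanoma, cells that lose the melanocyte programme are known to depend less on BRAF signalling and more on such pathways.

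Each of the 4 libraries held 29.6 to 32.6 M reads in genes and 2.00 to 2.36% of gene reads from mitochondrial genes, and both measures overlapped between the times. Reads that did not align were 13.5 and 15.4% untreated and 12.7 and 10.8% at 24 h, and the part of this in the results was not tested. Pigment genes were low in UACC62R: PMEL, MLANA, TYR, TYRP1 and DCT, the pigment cell genes, were all under 1 CPM (CPM, a gene's reads per 1e6 reads of its library, scaled by edgeR's TMM factor) in the 4 libraries. SOX10, a factor that defines the melanocyte lineage, stood at 26.0 and 26.3 CPM untreated and 29.9 and 27.0 CPM at 24 h, where UACC62P untreated held 919 and 787 CPM. Of the other melanocytic markers, MITF stood at 53.4 and 47.6 CPM and S100B at 3.16 and 2.19 CPM untreated. Markers of other cells were near 0: epithelial markers summed to 0.032 to 0.233 CPM, endothelial ones to 0.657 to 1.92 and blood ones to 0.699 to 0.877, with CDH1, PECAM1, CD3E and HBB at 0 reads in each of the 4 libraries. Fibroblast markers summed to 507 and 620 CPM untreated and 340 and 474 CPM at 24 h, genes that melanoma cells of this kind can also express. Another library, labelled as replicate 1 of UACC62P at 2 h, had a UACC62R-like profile and was left out of the fit, whose remaining 15 libraries share 1 estimate of the spread.

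Of 20280 genes tested, 2984 differed between 24 h and 0 h (14.7%) at an adjusted p under 0.05 in edgeR's quasi-likelihood test, 1315 higher at 24 h (6.48%) and 1669 lower (8.23%). The changes were mostly moderate. The median log2 change was 0.54 among genes that rose and -0.53 among those that fell, 175 rose and 209 fell by at least 2-fold, and 43 rose and 75 fell by at least 3-fold. In all 2984 the 2 treated libraries lay on 1 side of the 2 untreated ones, as they did in 53.6% of all genes tested. Over all genes the median log2 change was 0.01. Among genes with a mean of at least 1 CPM in the 4 libraries 20.1% were called in either direction. Counts of list members below are to be read beside these shares. The shares of all genes repeated there include 5748 genes with a mean under 1 CPM, of which 1.22% were called. Leaving out 0 h replicate 2 gave 583 genes higher and 668 lower, leaving out 24 h replicate 1 gave 632 and 981, and 1027 genes were called whichever of the 4 libraries was left out. Blocking on the replicate number gave 2230 higher and 2668 lower, in the 4 libraries alone 753 and 847, and with the library that resembled the other line restored 171 and 173. The block called more genes both ways, so list counts with the block below are to be read beside its own totals. Calls of 24 h against 0 h given below for single genes of UACC62R held without any 1 of the 4 libraries except where a loss is stated. Same-numbered libraries deviated together (correlation 0.663 for UACC62R at 0 and 24 h), and leaving out 1 library without a block leaves the replicate numbers unequal between the times. The part of this in the lost calls was not tested.

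**Figure D1:**
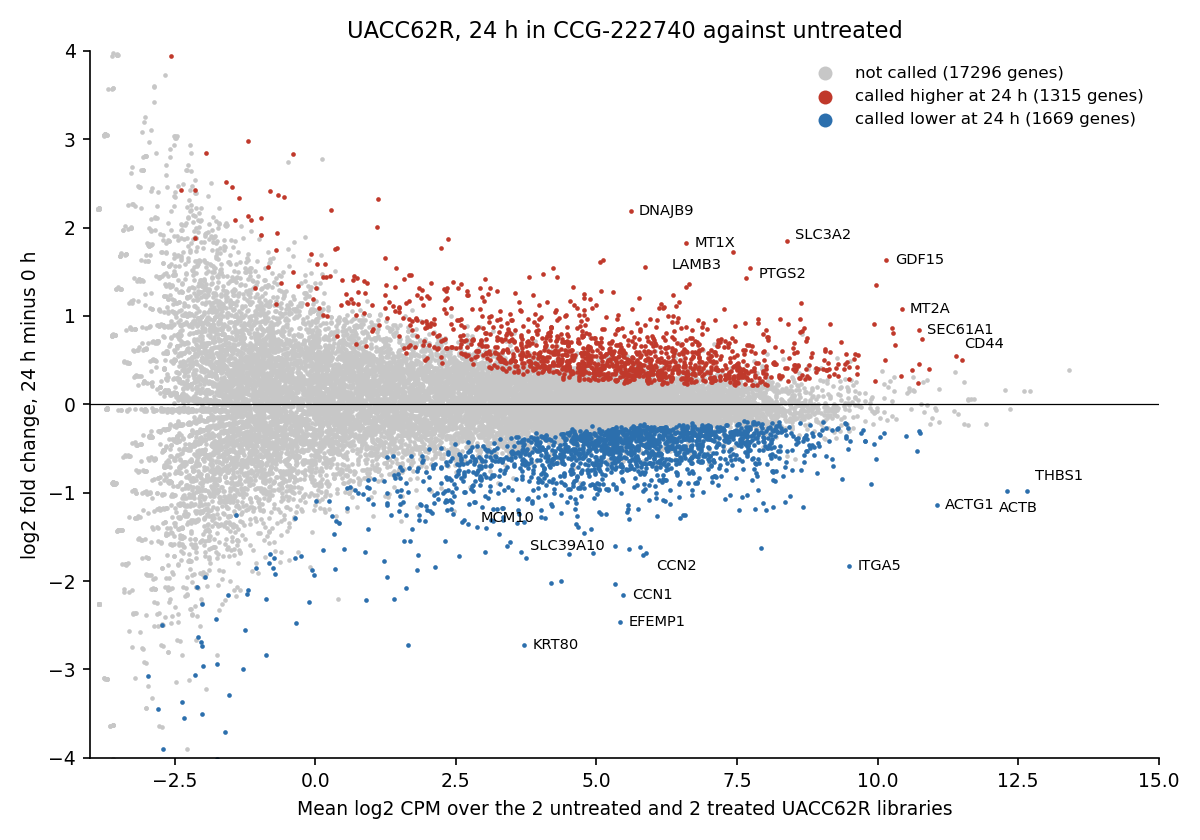
Mean level of each tested gene over the 4 UACC62R libraries (x axis, log2 CPM) against its log2 change from 0 h to 24 h (y axis); red points are genes called higher, blue points genes called lower and named points are genes described in the text. DNAJB9, MT1X and SLC3A2 lie at the top and KRT80, EFEMP1 and CCN1 at the bottom, while the bulk of genes lies around 0; 112 genes lie outside the axes.

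KRT80, a keratin of differentiating epithelium, had the largest fall in fold among called genes of mean log2 CPM 2 or more whose times did not overlap. It fell from 32.4 and 34.8 CPM to 5.36 and 4.81 CPM, a log2 change of -2.73 ± 0.12 (SE, n = 2 and 2, adjusted p = 6.5e-08). EFEMP1, a fibulin of elastic matrix, went from 99.9 and 101 CPM to 18.6 and 17.8 CPM, a change of -2.47 ± 0.12. SERPINB7, a protease inhibitor, fell by 2.02 on the log2 scale and FSTL3, a secreted inhibitor of activin, fell by 1.70. Both libraries of each time lay close together for KRT80 and EFEMP1, with a wide gap between the times. ANGPTL2, a secreted glycoprotein, fell by 1.69, NTM, an adhesion molecule of neurons, by 1.67, PCDHA7, a protocadherin, by 1.74 and LYPD1 by 1.84. Counted in reads rather than folds, the greatest losses were THBS1, ACTB, ACTG1 and ITGA5. THBS1 encodes thrombospondin-1, a matricellular protein, and went from 8621 and 9558 CPM to 4342 and 4891 CPM (-0.98 ± 0.10, adjusted p = 2.8e-05).

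DNAJB9, an ER co-chaperone of BiP, had the largest rise in fold among called genes of mean log2 CPM 2 or more whose times did not overlap. It stood at 22.7 and 23.1 CPM untreated and 90.8 and 118 CPM at 24 h (log2 change 2.19 ± 0.22, adjusted p = 2.8e-05). SLC3A2, the heavy chain shared by several amino acid transporters, rose from 178 and 175 CPM to 608 and 657 CPM (1.84 ± 0.15). GDF15, a stress-induced cytokine, rose from 685 and 618 CPM to 2303 and 1732 CPM (1.63 ± 0.16), the largest gain in CPM of any called gene, with its 24 h libraries further apart than its 0 h ones. LAMB3, the beta chain of laminin-332, rose by 1.72 and LAMB1, that of other laminins, by 1.34, from 638 and 628 CPM to 1697 and 1518 CPM. CYP4F11, a fatty acid hydroxylase, rose by 1.77, CYP1A1, which oxidises xenobiotics, by 1.44, CREBRF by 1.44, BTN3A3 by 1.54 and PTGS2, the inducible cyclooxygenase, by 1.54. PTGS2 stood at 132 and 119 CPM untreated and 389 and 341 CPM at 24 h. PADI4, JUP and SNED1 rose by 1.87, 1.63 and 1.61, but these calls were lost without 0 h replicate 2 (adjusted p = 0.16, 0.10 and 0.098) and without 24 h replicate 1 (0.13, 0.094 and 0.085).

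Cytoskeletal targets of MRTF and SRF fell as a group, and the actins themselves were among them. Of 25 such genes tested, 16 were called lower (64.0%) and the other 9 were not called, with a median log2 change of -0.48 over the list, and 14 to 16 were called lower in fits that left out 1 of the 4 libraries. Their summed level went from 25518 and 23872 CPM to 16341 and 15011 CPM. The transcript start regions of 23 members are in RefSeq's promoter set for GRCh38.p14, and 8 of them (34.8%) hold a CArG box within 250 bases before to 50 after the start, against 1.29% of 27305 promoters searched on both strands. The boxes of 5 members called lower are shown because they are the sequence SRF is known to bind, with the box in capitals and 10 bases on either side, each 5′ to 3′ on the gene's strand.
ACTG1, 94 bases before the start: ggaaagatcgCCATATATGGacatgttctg
CNN2, 89 bases before the start: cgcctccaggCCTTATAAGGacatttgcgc
FHL2, 101 bases before the start: aatctggagaCCTTAAAAGGcacgtgggag
MYLK, 94 bases before the start: ataaaccatcCCTTTTATGGgagttgaagc
TPM4, 173 bases before the start: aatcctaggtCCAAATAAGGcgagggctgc
SRF itself holds 2 boxes within 30 bases before its start, shown as the factor's own gene.
SRF, 30 bases before the start: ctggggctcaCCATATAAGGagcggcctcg
SRF, 10 bases before the start: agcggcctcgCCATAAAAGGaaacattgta
A match is a description of the letters and not a measurement of binding. Lists of known targets, here and below, were likely to hold more matches than all promoters, so such an excess tests nothing. FLNA and ACTG2 hold a box too and were not called: FLNA, a crosslinker of actin filaments, had a log2 change of -0.23 (adjusted p = 0.089) and ACTG2, a smooth muscle actin, was under 0.4 CPM in each of the 4 libraries.

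ACTB, the main cytoplasmic actin, went from 7219.5 and 6967 CPM to 3616 and 3570.5 CPM, a log2 change of -0.98 ± 0.07 (adjusted p = 2.2e-06). ACTG1, the other cytoplasmic actin, went from 3333 and 2981 CPM to 1617 and 1261 CPM (-1.13 ± 0.10, adjusted p = 1.3e-05). The treated libraries lay far below the untreated ones in both actins, close together for ACTB and further apart for ACTG1. Reads shared by the near-identical actins were not counted, so their levels are uncertain. TPM1, a tropomyosin that lies along actin filaments, fell from 311 and 370 CPM to 138 and 162 CPM (-1.18 ± 0.11), and VCL, which links integrins to actin, from 391 and 342 CPM to 223 and 210 CPM (-0.76 ± 0.09). MYH9, a non-muscle myosin, fell by 0.53. ITGA5, a subunit of the fibronectin receptor, fell most in the list, from 1402 and 1314 CPM to 408 and 357 CPM (-1.83 ± 0.14, adjusted p = 4.4e-06). ACTB, TPM1, VCL, MYH9 and ITGA5 are not among the list members in which a box was found. The 4 further members that hold a box, named for the box in their promoters and with their values known, fell as well: CNN2 by 0.81, MYLK by 0.67, TPM4 by 0.59 and FHL2 by 0.43 on the log2 scale. Of the classical smooth muscle targets, ACTA2 (-0.07 ± 0.11) and TAGLN (-0.20 ± 0.31, adjusted p = 0.74) were not called. ACTA2 stood at 21.9 and 20.8 CPM untreated and 19.6 and 20.9 CPM at 24 h, and TAGLN at 6.23 and 9.77 against 5.29 and 8.62 CPM, so that both overlapped between the times.

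The ACTG1 promoter is printed in full because this gene combines a box with one of the largest losses of reads. It lies on chr17:81512800-81513049 of GRCh38.p14, minus strand, and the 250 bases before the start read 5′ to 3′ with the CArG box in capitals.
ACTG1: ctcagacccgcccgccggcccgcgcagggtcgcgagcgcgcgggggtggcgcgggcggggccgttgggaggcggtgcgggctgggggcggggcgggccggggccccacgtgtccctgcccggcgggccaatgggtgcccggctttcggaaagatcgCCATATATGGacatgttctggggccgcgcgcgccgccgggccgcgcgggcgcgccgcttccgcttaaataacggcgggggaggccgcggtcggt

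Components of the pathway itself showed small changes. SRF fell from 86.4 and 79.2 CPM to 63.2 and 55.8 CPM (-0.48 ± 0.09, adjusted p = 0.0025). MRTFA had a log2 change of -0.31 ± 0.09 (adjusted p = 0.037), a call lost without 0 h replicate 1 (0.22), 24 h replicate 1 (0.061) and 24 h replicate 2 (0.15). MRTFB stood at 39.3 and 35.6 CPM and then 43.1 and 31.4 CPM, with no difference detectable (-0.01 ± 0.15). PIR, which encodes pirin, a protein known to bind compounds of this chemical series, rose by 0.34 (adjusted p = 0.038), and that call held only without 0 h replicate 1.

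Targets of YAP and TAZ fell in a share like that of the MRTF targets. Of 24 members 15 were called lower (62.5%) and 1 higher, with a median of -0.74, and 11 to 14 were called lower when 1 library was left out. Their summed level went from 2809 and 2734 CPM to 2219 and 1935 CPM. CCN1, a matricellular protein and textbook target of both pathways, fell from 95.1 and 93.6 CPM to 19.0 and 23.2 CPM (-2.16 ± 0.13, adjusted p = 7.9e-07). CCN2, its relative, fell from 111 and 101 CPM to 30.4 and 35.3 CPM (-1.69 ± 0.13). The treated libraries of both genes lay far below the untreated ones, with no overlap. CRIM1, a membrane regulator of BMPs, fell from 413 and 443 CPM to 145 and 132 CPM (-1.62 ± 0.12). AMOTL2, which restrains YAP, fell by 1.26 on the log2 scale. ANKRD1, a nuclear ankyrin repeat protein, was at 0.659 and 1.00 CPM untreated and 0.162 and 0.117 CPM at 24 h, and its change of -2.55 ± 0.73 (adjusted p = 0.03) was called without 0 h replicate 1 but not without the other 3 libraries. The 1 member that rose was WWTR1, which encodes TAZ itself (0.47, adjusted p = 0.015), lost without 0 h replicate 2 (0.17) and without 24 h replicate 1 (0.20). None of the 17 promoters found for this list holds a CArG box, against 1.29% of all promoters. At so low a share 0 of 17 cannot set the list apart from other promoters or tell whether SRF acts on it. GGAATG, the TEAD site, occurs on either strand in 8 of 17, against 14.0% of all promoters.

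Integrins, proteases and matrix genes moved both ways. In integrins and focal adhesions 5 of 22 were called lower (22.7%, against 8.23% of all genes) and 1 higher (4.55%, against 6.48%). ITGAV, a subunit of the vitronectin receptor, fell by 0.67 and ITGA4, which binds VCAM1 and fibronectin, by 0.65, while ITGA10, part of a collagen receptor, rose by 0.85 from under 2 CPM and lost its call without 0 h replicate 2 (adjusted p = 0.19) and 24 h replicate 1 (0.094). ITGB5, named after its value was seen, had a change of -0.42 and lost its call without 0 h replicate 1 (0.17) and 24 h replicate 2 (0.17). With the block 8 were called lower and 4 higher. Of 20 matrix proteases and inhibitors 7 fell, in each fit that left out a library too, and 3 rose. ADAM19 fell by 1.71, ADAMTS1 by 1.61, PLAT, the tissue plasminogen activator, by 1.16 from 423 and 422 CPM to 208 and 169 CPM, and ADAMTS12 by 1.05. MMP14, the membrane collagenase, went from 1431 and 1150 CPM to 744 and 636 CPM (-0.90 ± 0.13). MMP1, a secreted collagenase, rose from 5.74 and 4.32 CPM to 17.0 and 9.91 CPM, a call lost without 0 h replicate 2 (adjusted p = 0.099) and 24 h replicate 1 (0.10), and the rises of MMP3 and TIMP1 were lost without any 1 of the 4 libraries.

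Collagen genes moved both ways. Of 27 collagens and collagen-processing genes 8 fell and 4 rose, with a median of -0.35; the block gave 14 and 4, and 2 rose without 0 h replicate 2 or 24 h replicate 1. COL5A1, a fibrillar collagen, went from 863 and 903 CPM to 450.0 and 533 CPM (-0.84 ± 0.13) and COL4A2, of basement membrane, fell by 0.75. BMP1, which cleaves procollagen, fell by 0.81. P4HA1 and P4HA2, the catalytic subunits of collagen prolyl hydroxylase in the ER, rose from 175 and 167 to 323 and 325 CPM (0.92 ± 0.07) and from 218 and 221 to 411 and 444 CPM (0.96 ± 0.10). P4HA3, the third such subunit, fell by 1.27. In the list of other matrix genes 5 of 23 fell and 2 rose, 7 and 4 with the block: TGFBI, an integrin ligand induced by TGF-beta, fell by 1.28 and FSTL1 by 1.16, while MGP, an inhibitor of calcification, rose by 0.56. FBN1, the fifth that fell, was named after its values were seen and fell by 0.98.

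Enzymes that build glycosaminoglycans, the long sugar chains of the matrix, fell more often than they rose. Of 24 members 10 were called lower (41.7%) and 4 higher, with a median of -0.18, and 7 to 10 lower in fits without 1 library, where 2 or 3 were higher (2 without 0 h replicate 2 or 24 h replicate 1). XYLT1, which starts the chains on a core protein, fell from 34.4 and 45.1 CPM to 15 and 16 CPM (-1.36 ± 0.21). HAS2, which makes hyaluronan, fell from 24.2 and 25.8 CPM to 9.06 and 11.6 CPM (-1.27 ± 0.18). CHPF2, a subunit that extends chondroitin, fell from 286 and 275 CPM to 126 and 118 CPM (-1.20 ± 0.09). CSGALNACT2, which starts chondroitin chains, went the other way, from 18.7 and 24.6 CPM to 54.6 and 51.0 CPM (1.28 ± 0.12).

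Genes of DNA replication fell almost without exception. Of 27 genes of the G1/S transition and replication 26 were called lower (96.3%), with a median log2 change of -0.86, and the remaining member, CDC6, named after its value was seen, had a change of -0.27 (adjusted p = 0.21). Leaving out 0 h replicate 2 kept 19 of these calls by number and leaving out 24 h replicate 1 kept 21. CLSPN, a checkpoint adaptor at replication forks, went from 43.2 and 56.1 CPM to 14.8 and 22.3 CPM (-1.42 ± 0.18, adjusted p = 0.00018). CDT1, which licenses origins, went from 47.5 and 57.5 CPM to 18.2 and 26.1 CPM (-1.24 ± 0.14), and MCM10, which activates the replicative helicase, from 22.3 and 31.6 CPM to 8.51 and 13.5 CPM (-1.29 ± 0.18). In all 3 genes replicate 2 was above replicate 1 at both times. CCNE2, a cyclin of G1/S, fell from 9.92 and 9.49 CPM to 3.67 and 4.17 CPM. In bulk RNA, fewer cells in a phase and less RNA per cell cannot be told apart.

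E2F factors are known to drive these genes in late G1, so a share of E2F sites above that of all promoters was likely beforehand. The letters TTTCCCGC or TTTGGCGC, on either strand, occur in 15 of the 23 promoters found for the list (65.2%), against 2.31% of all promoters and 2 of 21 of the mitotic genes. CDT1 is shown as an example from chr16:88803539-88803788 of GRCh38.p14, plus strand, the 250 bases before the start, with the E2F match in capitals.
CDT1: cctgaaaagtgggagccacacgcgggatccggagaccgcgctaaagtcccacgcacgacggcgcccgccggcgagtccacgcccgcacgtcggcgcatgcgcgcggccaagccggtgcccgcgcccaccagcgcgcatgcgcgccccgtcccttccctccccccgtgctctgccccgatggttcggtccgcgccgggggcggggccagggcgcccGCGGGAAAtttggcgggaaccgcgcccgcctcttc

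Mitotic genes were lower too, with calls that varied more with the library left out of the fit without a block. Of 25 members 15 were called lower and 10 were not called, with a median of -0.60; 23 were called lower with the replicate block. All 15 calls were lost without 0 h replicate 2 and 2 members were called without 24 h replicate 1, while 19 and 24 were called without 0 h replicate 1 and 24 h replicate 2. BIRC5, survivin, went from 49.2 and 65.9 CPM to 22.8 and 36.3 CPM (-0.96 ± 0.20, adjusted p = 0.0049, and 0.077 without 0 h replicate 2). MKI67, the proliferation marker Ki-67, went from 195 and 244 CPM to 110.0 and 162 CPM (-0.69 ± 0.16, adjusted p = 0.012, 0.15 without 0 h replicate 2 and 0.090 without 24 h replicate 1). The times did not overlap for either gene, replicate 2 was above replicate 1 at both times, and each same-numbered pair fell (adjusted p = 0.00024 and 0.00075 with the block). Among G1 regulators 7 of 16 fell and 2 rose. CDK2, the kinase of S phase entry, fell by 0.76 and RBL1, a pocket protein, by 0.68. CCND1, cyclin D1, stood at 643 and 580 CPM untreated and 506 and 429 CPM at 24 h (-0.39 ± 0.13, adjusted p = 0.053, and 2.6e-05 with the replicate block). CDKN1A, the inhibitor p21, had a change of 0.26 (adjusted p = 0.15, and 0.013 with the block).

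Ribosome biogenesis genes fell together. Of 24 members 20 were called lower (83.3%), all 24 had a negative change, and the median was -0.50. Leaving out 0 h replicate 2 gave 12 called lower, the lowest of the 4 such fits. NOP16, a nucleolar protein, fell from 29.9 and 36.6 CPM to 15.3 and 19.8 CPM (-0.92 ± 0.14). DKC1, which modifies ribosomal RNA, went from 168 and 206 CPM to 97.2 and 114 CPM (-0.83 ± 0.11). NOLC1 fell by 0.78 and RRS1 by 0.76. MYC, a factor known to drive this programme, fell from 39.6 and 36.8 CPM to 26.2 and 22.1 CPM (-0.66 ± 0.11). Of 20 aminoacyl-tRNA synthetases 7 fell, with HARS1 at -0.37 and VARS1 at -0.33, and without 0 h replicate 2 the number was 3. Of 25 proteasome subunits 3 fell (12%, against 8.23% of all genes), PSMD2 by 0.33, PSMC3 by 0.22 and PSMD11 by 0.21. None of the 3 calls held in all 4 fits, and 7 were called with the block.

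**Figure D2:**
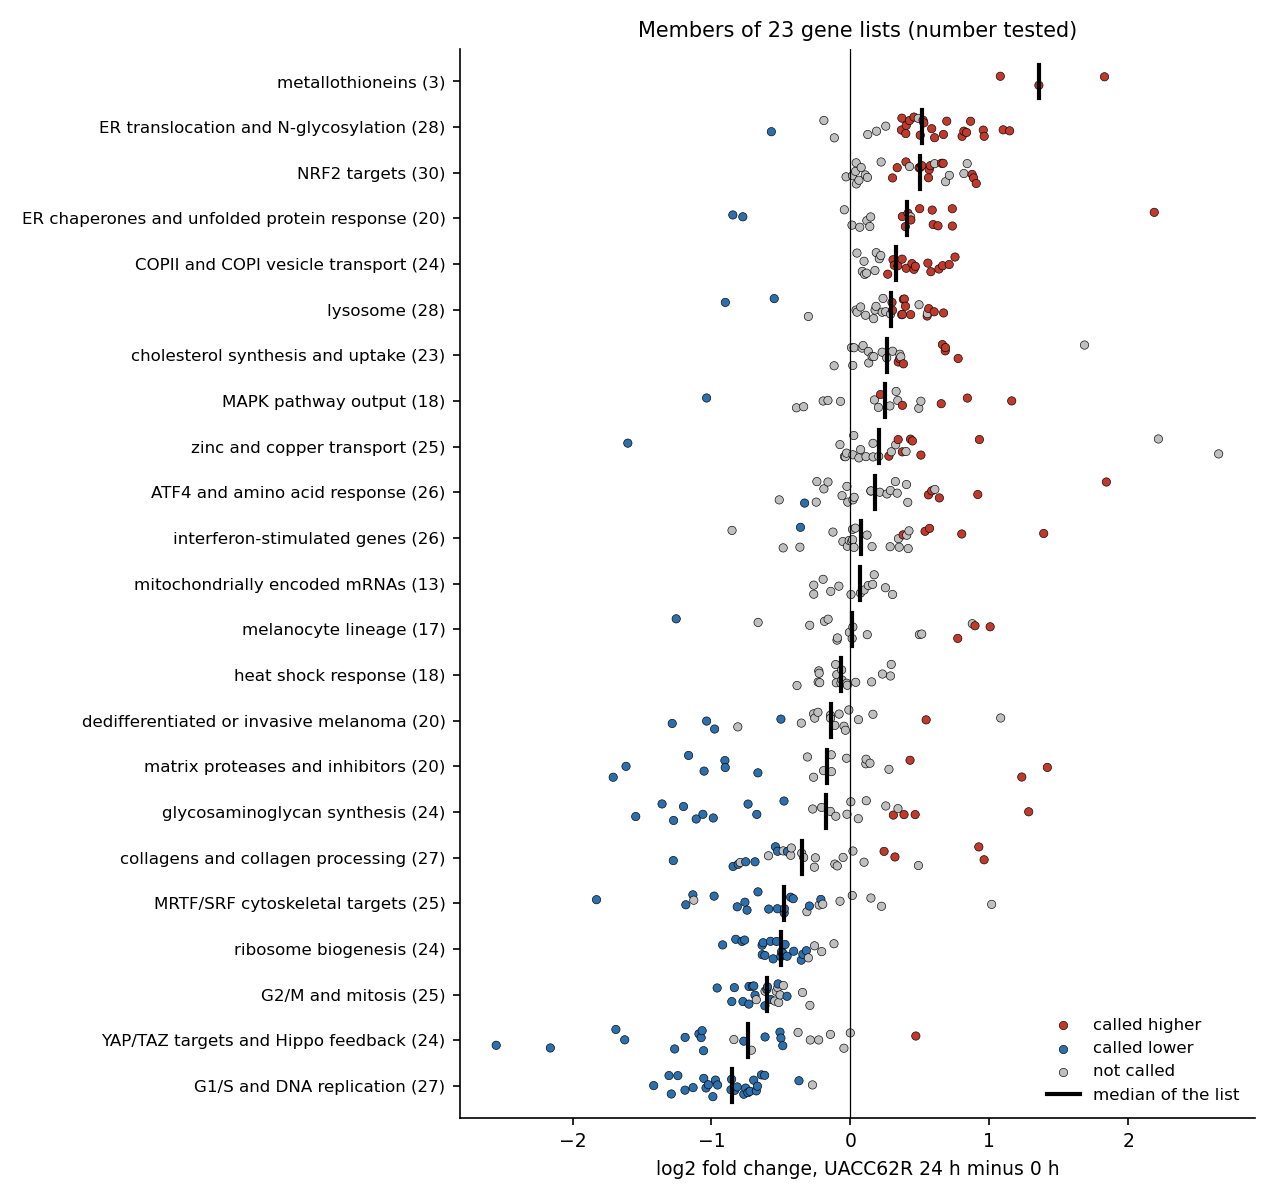
Log2 change at 24 h of each tested member of 23 gene lists (points, 1 row a list), with called members red (higher) or blue (lower), others grey, and the list's median marked; the vertical line is 0. Replication, ribosome biogenesis and YAP/TAZ members lie mostly left of 0 and ER translocation, vesicle transport and NRF2 members mostly right of it.

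Genes of the early secretory pathway rose widely. Of 28 genes of ER translocation and N-glycosylation 21 were called higher (75.0%) and 1 lower, with a median of 0.51, and 15 to 21 were higher in fits without 1 library. SSR1, a subunit of the translocon-associated complex, rose from 255 and 278 CPM to 599 and 579.5 CPM (1.15 ± 0.07, adjusted p = 6.8e-07). SEC61A1, the channel through which proteins enter the ER, rose from 1232 and 1313 CPM to 2253 and 2289 CPM (0.84 ± 0.07). SEC63, its partner, and SSR2 each rose by 0.96, and ALG2, which builds the sugar precursor, by 1.10. For SSR1 and SEC61A1 the libraries of a time lay close together, with a wide gap between the times. MOGS, which trims the first sugar from new glycoproteins, was the 1 member that fell, from 87.1 and 80.9 CPM to 54.7 and 58.5 CPM (-0.57 ± 0.08).

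ER chaperones and unfolded protein response genes showed the same tilt with clear exceptions. Of 20 members 11 rose (55.0%) and 2 fell, with a median of 0.41, and 9 to 11 rose in fits without 1 library. CANX, the lectin chaperone calnexin, rose from 1315 and 1420.2 CPM to 2305 and 2243 CPM (0.73 ± 0.07). XBP1, a transcription factor of the response, rose by 0.73 and CRELD2 by 0.63. PDIA4, a protein disulfide isomerase, fell from 648 and 626 CPM to 338 and 407 CPM (-0.77 ± 0.11) and DNAJC3, an inhibitor of the kinase PERK, from 57.0 and 61.2 CPM to 30.4 and 35.3 CPM (-0.85 ± 0.12). Of 24 genes of the COPII and COPI coats that carry vesicles between ER and Golgi, 15 rose (62.5%) and the other 9 were not called, with all 24 changes above 0 and a median of 0.33. SEC23B and SEC24D, parts of the inner COPII coat, rose by 0.75 and 0.71, KDELR3, which returns escaped ER proteins, from 102 and 125 CPM to 173 and 186 CPM (0.66 ± 0.12), and TMED10, a cargo receptor, by 0.64.

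The promoters of these lists carry known stress-response letters in unequal shares. The chaperone list holds known genes of the unfolded protein response, so a higher share there was likely beforehand. The ER stress element, CCAAT followed by CCACG after 9 free bases, occurs on either strand in 6 of the 19 promoters found for the chaperone list, of CALR, CANX, CRELD2, HSP90B1, HSPA5 and XBP1, against 0.0806% of all promoters and 1 of 25 of the translocation list. TGACGTG occurs in 9 of the 21 promoters of the vesicle list (42.9%), against 2.00% of all, 2 of 25 of the translocation list and 1 of 19 of the chaperone list. The 9 include SEC13, SEC16A, SEC23A and SEC24A, named for the letters in their promoters, which were not called. CANX (chr5:179698679-179698928, plus strand) and KDELR3 (chr22:38467846-38468095, plus strand) are printed as 1 rising example of each kind among several, the 250 bases before the start in GRCh38.p14 with the match in capitals, which in KDELR3 lies on the opposite strand.
CANX: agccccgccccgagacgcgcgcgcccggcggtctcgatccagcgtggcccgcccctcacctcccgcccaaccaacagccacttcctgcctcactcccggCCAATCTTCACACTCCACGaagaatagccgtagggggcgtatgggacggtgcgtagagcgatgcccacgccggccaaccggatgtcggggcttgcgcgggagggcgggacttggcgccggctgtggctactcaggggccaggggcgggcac
KDELR3: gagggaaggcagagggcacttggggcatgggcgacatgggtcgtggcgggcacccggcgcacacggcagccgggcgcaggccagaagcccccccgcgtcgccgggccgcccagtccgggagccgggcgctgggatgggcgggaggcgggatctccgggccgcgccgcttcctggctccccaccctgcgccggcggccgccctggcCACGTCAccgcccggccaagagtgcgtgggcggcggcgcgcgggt

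Lysosome and autophagy genes rose in part. Of 28 lysosomal genes 11 rose and 2 fell, 20 and 3 with the block, and 5 or 6 rose without 24 h replicate 1 or 0 h replicate 2. MCOLN1, the lysosomal calcium channel, rose by 0.67 and CTSL, a cathepsin, from 666 and 605 CPM to 973 and 906 CPM (0.56 ± 0.07). NAGLU and SGSH, which degrade heparan sulfate, were the 2 that fell, by 0.90 and 0.55. Of 18 autophagy genes 5 rose, 9 with the block and 3 without either of those 2 libraries. WIPI1, which marks forming autophagosomes, rose from 28.1 and 31.0 CPM to 61.0 and 57.9 CPM (1.01 ± 0.12), ATG13 by 0.55 and NBR1 by 0.46. The rise of SQSTM1 by 0.57 was lost without 0 h replicate 2 (adjusted p = 0.079) and 24 h replicate 1 (0.099), and that of GABARAPL1 by 0.35, named after its value was seen, without any 1 library.

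The 3 metallothioneins tested, small zinc- and copper-binding proteins, all rose. MT1X went from 55.6 and 47.8 CPM to 207 and 160.5 CPM (1.83 ± 0.17, adjusted p = 1.7e-05). MT2A went from 954 and 942 CPM to 2085 and 1920.5 CPM (1.08 ± 0.10) and MT1G from 3.99 and 3.47 CPM to 10.0 and 9.12 CPM (1.36 ± 0.23). The groups were well apart in each, but the MT1 genes are close copies whose shared reads were not counted. MTF1, the zinc sensor that is known to drive them, stood at 41.3 and 41.0 against 43.5 and 37.2 CPM and was not called (-0.03 ± 0.09). Of 25 zinc and copper transport genes 7 rose and 1 fell, 10 and 1 with the block, and 4 rose without 0 h replicate 1. SLC30A1, which exports zinc from the cell, rose from 52.0 and 66.2 CPM to 109 and 116 CPM (0.93 ± 0.17), and SLC30A7, which loads zinc into the secretory pathway, by 0.51. SLC39A10, which imports zinc, fell from 63.6 and 77.3 CPM to 22.6 and 23.8 CPM (-1.60 ± 0.16, adjusted p = 1.9e-05). The metal response element was searched as TGCACNC or TGCGCNC on either strand. It occurs in both metallothionein promoters found, MT1X and MT2A, and in 8 of 22 of the transport list, against 29.3% of all promoters. MT1X is shown for its 4 matches, in capitals, in the 250 bases before the start at chr16:56682220-56682469 of GRCh38.p14, plus strand.
MT1X: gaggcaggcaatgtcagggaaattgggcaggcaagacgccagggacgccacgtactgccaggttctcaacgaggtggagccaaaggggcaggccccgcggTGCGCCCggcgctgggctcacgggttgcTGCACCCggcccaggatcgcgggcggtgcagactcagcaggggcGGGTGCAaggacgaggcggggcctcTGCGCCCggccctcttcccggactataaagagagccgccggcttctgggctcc

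Targets of NRF2, the regulator of antioxidant defence, rose in 14 of 30 cases (46.7%) and the other 16 were not called, with a median of 0.50. The number fell to 5 without 0 h replicate 2 and to 7 without 24 h replicate 1. EPHX1, an epoxide hydrolase, rose from 133 and 125 CPM to 250.2 and 227 CPM (0.89 ± 0.08), the firmest of them. FTH1, the ferritin heavy chain, rose by 0.91 and AKR1C3, an aldo-keto reductase, by 0.88, both calls lost without 0 h replicate 2 (adjusted p = 0.055 and 0.053), and reads these genes share with close copies were not counted. NQO1, the quinone reductase, rose by 0.67 and was lost without 0 h replicate 2 (0.11) and 24 h replicate 1 (0.085). NFE2L2, which encodes NRF2, was not called (0.11 ± 0.08). The antioxidant element, searched as TGACNNNGC on either strand, occurs in 5 of the 22 promoters found for the NRF2 list (22.7%), against 13.6% of all promoters. Targets of ATF4, the factor of amino acid shortage, rose in 5 of 26 cases (19.2%) and fell in 1 (3.85%), 10 and 3 with the block. Without the block the shares of all genes were 6.48% and 8.23%, and with it 2230 of 20280 genes were higher and 2668 lower. SLC3A2 and CEBPB, a bZIP factor that rose by 0.92, were the firm ones. CTH, ALDH1L2 and SLC7A11 rose by 0.64, 0.59 and 0.56, the last named after its value was seen, and MTHFD2 fell by 0.33, but the 3 rises were lost without 24 h replicate 1 (adjusted p = 0.13, 0.17 and 0.077). CTH was lost without any 1 library, ALDH1L2 also without 0 h replicate 2 (0.26), and the fall of MTHFD2 without 0 h replicate 2 (0.19) and 24 h replicate 2 (0.092). ATF4 was not called (0.15 ± 0.11).

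Some lipid genes rose. Of 23 genes of cholesterol synthesis and uptake 7 were called higher and 16 were not called, 22 of 23 changes were positive and the median was 0.26, but 1 was called without 0 h replicate 2 and 3 without 24 h replicate 2. SQLE, squalene epoxidase, rose by 0.68. SREBF2, the master regulator of the pathway, rose by 0.68 and lost its call without 0 h replicate 2 (adjusted p = 0.072). Of 11 fatty acid synthesis genes 3 rose, 5 with the block: ACSL3, which activates fatty acids, by 0.65, FADS2, a desaturase, by 0.62, and SREBF1 by 0.87, lost without 0 h replicate 2 (0.072) and 24 h replicate 1 (0.056).

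Melanoma state genes and BRAF pathway feedback genes moved both ways. Of 17 melanocyte lineage genes 3 rose (17.6%) and 1 fell (5.88%), against 6.48% and 8.23% of all genes. ERBB3, a neuregulin receptor, rose from 1.15 and 1.10 CPM to 2.50 and 2.04 CPM (1.01 ± 0.16). EDNRB, the endothelin receptor, rose by 0.90 and S100B by 0.77, with EDNRB lost without 24 h replicate 1 (adjusted p = 0.053) and S100B without 0 h replicate 2 (0.13) and 24 h replicate 2 (0.078). MLANA, named after its values were seen, was under 0.5 CPM throughout and lost its call without any 1 library. MITF, the master factor of the lineage, stood at 53.4 and 47.6 CPM and then 41.0 and 41.4 CPM and was not called (-0.29 ± 0.11, adjusted p = 0.083, and 0.017 with the block). SOX10 was not called (0.12 ± 0.10). Of 20 genes of the dedifferentiated, invasive state 4 fell (20%) and 1 rose (5%), 6 and 2 with the block. THBS1, TGFBI, FOSL1 and AXL fell and CD44, a hyaluronan receptor, rose from 2179 and 2259 CPM to 3364 and 3110 CPM (0.54 ± 0.07). AXL, a receptor kinase of resistant melanoma, went from 229 and 267 CPM to 172 and 178 CPM (-0.50 ± 0.12, adjusted p = 0.014, 0.15 without 0 h replicate 2 and 0.057 without 24 h replicate 1).

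Among 19 receptor kinases linked to BRAF inhibitor resistance 5 fell and 3 rose, with 3, 2, 1 and 3 called lower without 0 h replicates 1 and 2 and 24 h replicates 1 and 2. MERTK, a kinase of the AXL family, rose from 0.560 and 0.657 CPM to 1.85 and 1.84 CPM (1.59 ± 0.33), and TYRO3, the third of that family, fell from 45.4 and 46.4 CPM to 31.6 and 31.1 CPM (-0.55 ± 0.08). ERBB3 was the other firm call of the list, of which 15.8% was called higher and 26.3% lower, against 6.48% and 8.23% of all genes. NTRK2 (-1.20), ROR1 (-0.54), INSR (0.51) and FGFR1 (-0.37), the last named after its value was seen, were less firm. NTRK2 lost its call without any 1 library and ROR1 kept its call only without 0 h replicate 2. INSR and FGFR1 lost theirs without 0 h replicate 2 and without 24 h replicate 1. Of 18 genes of MAPK pathway output 5 rose and 1 fell, 10 and 3 with the block, with 1 higher without 0 h replicate 2 or 24 h replicate 1 and 9 higher without 24 h replicate 2. SPRY2, a feedback inhibitor of the pathway, rose from 65.7 and 58.3 CPM to 104 and 91.0 CPM (0.65 ± 0.10), while FOSL1, an AP-1 subunit, fell from 487 and 505 CPM to 258 and 227 CPM (-1.04 ± 0.08, adjusted p = 4.2e-06). SPRY1 and SPRY4 rose by 1.16 and 0.84, both lost without 0 h replicate 2 (adjusted p = 0.36 and 0.22) and without 24 h replicate 1 (0.36 and 0.26), as were the smaller rises of ETV1 (0.15 and 0.20) and of ETV5 (0.19 and 0.27), the latter named after its value was seen and lost also without 0 h replicate 1 (0.098). BRAF was not called (0.16 ± 0.11). Among 22 immediate early genes 5 fell and 1 rose, 7 and 3 with the block: JUN fell from 105 and 96.8 CPM to 73.5 and 66.4 CPM (-0.53 ± 0.08) beside FOSL1 and MYC. KLF10, named after its value was seen, fell by 0.48, IER2 fell by 0.48 but not without 0 h replicate 1 (adjusted p = 0.081) or 24 h replicate 2 (0.084), and NR4A2 rose by 0.80 but not without 0 h replicate 2 (0.27) or 24 h replicate 1 (0.32).

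Cytokines and signalling genes gave single firm changes. CCL2, a monocyte attractant, fell from 80.1 and 89.9 CPM to 23.7 and 31.0 CPM (-1.63 ± 0.19) and CXCL1 from 22.3 and 19.3 CPM to 7.01 and 9.50 CPM (-1.33 ± 0.18), while PTGS2 rose, in a list of 19 NF-kB targets of which 3 fell and 1 rose. The third that fell, IL6, named after its values were seen, was under 0.9 CPM in each library and lost its call without any 1 of them. Of 21 TGF-beta and activin genes 4 rose (19.0%) and 2 fell (9.52%), against 6.48% and 8.23% of all genes. LTBP2, which binds latent TGF-beta, fell by 1.23, ID2 rose by 0.75 and the receptor ACVR1 by 0.43. ID1 and ID3 rose by 0.41 and 0.38, both lost without 24 h replicate 1 (adjusted p = 0.41 and 0.20), 0 h replicate 2 (0.29 and 0.080) and 0 h replicate 1 (0.057 and 0.13), and the fall of TGFBR1 by 0.39 was lost without 0 h replicate 2 (0.19) and 24 h replicate 2 (0.057). In the list of 23 p53 targets 3 rose (13.0%) and 1 fell (4.35%), near the shares of all genes, and 5 and 4 with the block. GDF15, TP53INP1, by 0.94, and TNFRSF10B, a death receptor, by 0.41, rose, and PLK2 fell by 0.60. Of 15 FOXO-linked genes 8 rose and 1 fell, and 5, 3, 3 and 10 rose without 0 h replicates 1 and 2 and 24 h replicates 1 and 2; SESN3, a stress-induced regulator of mTORC1, rose from 14.5 and 16 CPM to 25.9 and 26.0 CPM (0.76 ± 0.10). Of 13 ABC transporters 4 rose, 7 with the block and 4 in each fit without 1 library: ABCB1, the multidrug exporter, from 2.11 and 2.38 CPM to 5.23 and 5.33 CPM (1.23 ± 0.23), ABCG2 by 0.71, ABCC2 by 0.66 and ABCC4 by 0.53. Of 25 glycolysis and hypoxia genes 3 rose, 8 with the block, with P4HA1, given above, and SLC2A3, a glucose transporter that rose by 0.84, called in each fit without 1 library. PER2, a clock gene, fell by 1.02. Of 26 interferon-stimulated genes 5 rose and 1 fell and of 16 antigen presentation genes 2 rose and 1 fell, but each of these rises was lost without 0 h replicate 2, with STAT2 at 0.57 (adjusted p = 0.0047, and 0.064 without that library). The called shares, higher and lower, were 19.2% and 3.85% in the interferon list and 12.5% and 6.25% in the antigen presentation list. Over all genes they were 6.48% and 8.23%, and among genes with a mean of at least 1 CPM 20.1% were called in either direction. H2BC21, a histone gene, rose by 0.80.

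Some lists held no called member in edgeR's test. None of the 18 heat shock genes was called at 24 h, with 2 lower at an unadjusted p under 0.05, none by DESeq2 and 5 lower with the block; HSF1, their regulator, had a change of -0.02 ± 0.07 and HSP90AB1 one of -0.23 (adjusted p = 0.13, and 0.0071 with the block). Of 24 nuclear subunits of respiratory complex I none was called, 1 rose and 1 fell at an unadjusted p under 0.05, and none was called by DESeq2. Of 13 mitochondrially encoded mRNAs none was called or passed the unadjusted p, and none was called by DESeq2, with MT-CYB at 0.30 (adjusted p = 0.18). The fibroblast, epithelial, endothelial and blood markers held no call by either tool, with 1 fibroblast, 1 epithelial and 1 endothelial marker lower at an unadjusted p under 0.05 and 3 fibroblast markers and 1 epithelial one lower with the block. The part of these markers in the results was not tested.

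Set beside 6 h in the same compound, the 24 h libraries differed at 2550 genes (12.6%), 1051 higher (5.18%) and 1499 lower (7.39%), a comparison that involves no untreated library but shares the 24 h libraries with the main one. Without 6 h replicate 2 the counts were 363 and 601, and without 24 h replicate 1 451 and 782. Against 0 h, the 6 h libraries differed at 135 genes (0.666%). Replication genes lay near their untreated level at 6 h, with a median change from 0 h of -0.01, and 27 of 27 were lower at 24 h than at 6 h. CDT1 differed by -0.07 at 6 h from 0 h and by -1.17 at 24 h from 6 h. ACTB stood at 7056 and 6513 CPM at 6 h and ACTG1 at 3093 and 2847 CPM, and for MRTF targets 14 of 25 were lower and 1 higher at 24 h than at 6 h. ITGA5 was different in time, with 563 and 652 CPM at 6 h, already 1.16 lower on the log2 scale than at 0 h. YAP and TAZ targets were lower in 15 of 24 cases at 24 h than at 6 h, with CCN2 at -1.89 and CCN1 at -1.71. ER translocation genes (19 of 28), ER chaperones (16 of 20) and vesicle genes (18 of 24) were higher at 24 h than at 6 h.

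Some genes turned back after 6 h, others had no detectable change after it and others moved between 6 h and 24 h. MT1X stood at 315 and 275 CPM at 2 h, 558 and 506 CPM at 6 h and 207 and 160.5 CPM at 24 h, so that all 3 metallothioneins were lower at 24 h than at 6 h. HSPA1A, an inducible HSP70 whose twin HSPA1B shares most of its reads, stood at 51.5 and 63.4 CPM untreated, 274 and 338 CPM at 6 h and 57.9 and 82.4 CPM at 24 h, and 15 of 18 heat shock genes were lower at 24 h than at 6 h. SLC30A1 had risen by 1.94 at 6 h and was 1.01 lower at 24 h than at 6 h. DNAJC3 had fallen by 1.52 at 6 h and MOGS by 1.00, and both were higher at 24 h than at 6 h, by 0.68 and 0.44. CHPF2, SLC39A10, ANGPTL2, PCDHA7 and NAGLU had fallen by 1.32, 1.32, 1.33, 1.27 and 1.06 at 6 h and did not differ detectably between 6 h and 24 h. PDK4, which holds back pyruvate oxidation, was 1.21 lower at 6 h than at 0 h and 2.08 higher at 24 h than at 6 h. KRT80 (-2.22), KLHL23 (-2.09), SERTAD4 (-1.68) and SERPINB7 (-1.67) were the other genes with the largest falls from 6 h to 24 h, and CYP1A1 (1.90) and PTGS2 (1.77) among the largest rises, with the called rises of PADI4, SNED1, JUP and FAXDC2 lost without 6 h replicate 2 (adjusted p = 0.085, 0.063, 0.14 and 0.067) and, except for FAXDC2, without 24 h replicate 1.

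**Figure D3:**
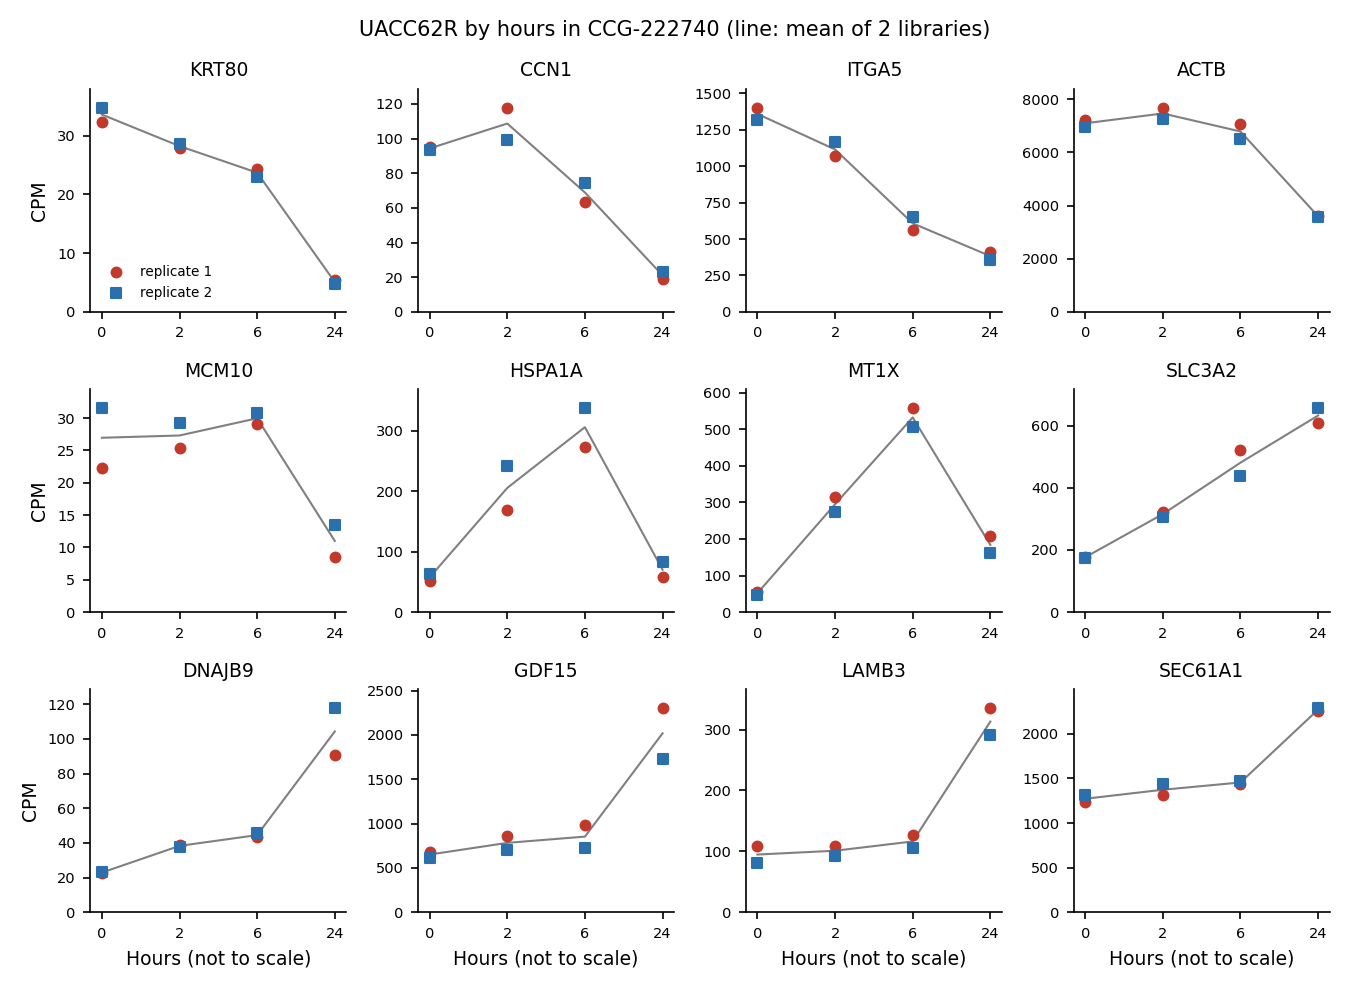
Levels of 12 genes in the UACC62R libraries at 0, 2, 6 and 24 h (x axis, times evenly spaced and not to scale; y axis, CPM from 0), with each library a point, by replicate, and the mean of the 2 a line. MT1X and HSPA1A are highest at 6 h, SLC3A2 climbs from 2 h on, ACTB and MCM10 fall between 6 h and 24 h and ITGA5 falls from 2 h on.

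In the parental line UACC62P 780 genes differed between 24 h and 0 h (3.85%), 445 higher (2.19%) and 335 lower (1.65%), in libraries that this comparison does not share with UACC62R. Of the genes that rose in UACC62R 24.2% also rose in UACC62P, which was 71.5% of those that rose in UACC62P. Of the genes that fell in UACC62R 11.1% fell in UACC62P, which was 55.2% of those that fell there. Of the calls in UACC62R, 87.2% of the rises and 87.2% of the falls had the same sign in UACC62P, against 64.1% of all genes tested, and 6 genes were called in opposite directions. Over all 20280 genes, those of few reads included, Pearson's r between the 2 sets of log2 changes was 0.16, a description across genes, which are not independent. ER translocation was close to equal between the lines, with 18 of 28 higher in UACC62P and a median of 0.42. MRTF targets were called lower in 5 of 25 cases in UACC62P with a median of -0.06 and YAP and TAZ targets in 2 of 24. Replication genes were called lower there in 5 of 27 cases with a median of -0.37, ribosome biogenesis genes in 1 of 24 and mitotic genes in 3 of 25 with a median of -0.53. The difference between the lines, tested below, was called in 4 of 24 YAP and TAZ targets and 3 of 27 replication genes, each lower in UACC62R. It was called in 0 of 24 ribosome biogenesis genes, 0 of 25 mitotic genes and 0 of 28 ER translocation genes. DNAJB9, SLC3A2 and MT1X rose in UACC62P by 1.69, 1.69 and 1.77.

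The difference between the 2 responses was itself called at 114 genes (0.562%), 49 with a higher change in UACC62R (0.242%) and 65 with a lower one (0.321%). Of these 102 were also called within UACC62R. No difference was called with the library that resembled UACC62R restored, where 260 and 371 genes passed an unadjusted p under 0.05, and DESeq2 called 167 and 232 in the 15 libraries. The block gave 358 and 464, the 8 libraries compared alone 12 and 26, and leaving out UACC62P 24 h replicate 1 left 1 and 10, the fewest of the 8 such fits. Of the 16 genes singled out by size, 4 kept their call in all 8: CRIM1, CDCA7, MAP3K14 and MT2A. CRIM1 stood at 94.3 and 78.3 CPM in untreated UACC62P and 86.5 and 72.8 CPM at 24 h, so that its fall was 1.51 ± 0.16 greater in UACC62R (adjusted p = 0.0024). CDCA7, a MYC and E2F target, fell from 18.9 and 19.3 CPM to 5.36 and 7.55 CPM in UACC62R and stood at 40.7 and 49.1 against 45.0 and 48.9 CPM in UACC62P, a difference of -1.62 ± 0.19. MAP3K14, the NF-kB-inducing kinase, fell by 1.11 in UACC62R and changed by 0.47 in UACC62P. MT2A rose in both, by 1.08 in UACC62R and by 2.38 in UACC62P from 124 and 106 CPM to 586 and 611 CPM, so that the difference of -1.30 ± 0.14 went with a higher start in UACC62R.

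Among MRTF targets 7 of 25 differed between the lines and each was lower in UACC62R. ACTB fell by 0.35 in UACC62P, with a difference of -0.63 ± 0.10 (adjusted p = 0.015), and ACTG1 changed by -0.30 there, with a difference of -0.83 ± 0.15 (adjusted p = 0.021). The treated levels came near each other: ACTB stood at 3616 and 3570.5 CPM in treated UACC62R and 3607 and 3441 CPM in treated UACC62P. CCN1 fell by 0.97 in UACC62P with a difference of -1.19. Whether the differences of ACTB, ACTG1 and CCN1 held with 1 library left out was not examined. CCN2 had a difference of -1.20, which was lost without UACC62P 0 h replicate 1, either UACC62P 24 h library or UACC62R 24 h replicate 1 (highest adjusted p = 0.074). ITGA5 fell by 1.17 in UACC62P and its difference of -0.66 ± 0.20 was not called (adjusted p = 0.18). AMOTL2 and FBN1 had differences of -1.33 and -1.32, lost without UACC62P 24 h replicate 1 (adjusted p = 0.054 and 0.069), and AMOTL2 also without UACC62P 24 h replicate 2 (0.055). CCN3 had a change of -1.65 in UACC62P and of -0.45 in UACC62R, a difference of 1.19 lost without UACC62P 24 h replicate 1 (0.063). GDF15, PTGS2, PREX1, CYP1A1, SLC7A8, RAB5IF and PHACTR1 had changes higher in UACC62R by 1.19, 1.21, 1.25, 1.43, 1.46, 1.33 and 1.19, and TLN2 had a difference of -1.45, but each lost its call in 5 or 6 of the 8 fits, with highest adjusted p from 0.091 for SLC7A8 to 0.16 for GDF15 and TLN2.

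**Figure D4:**
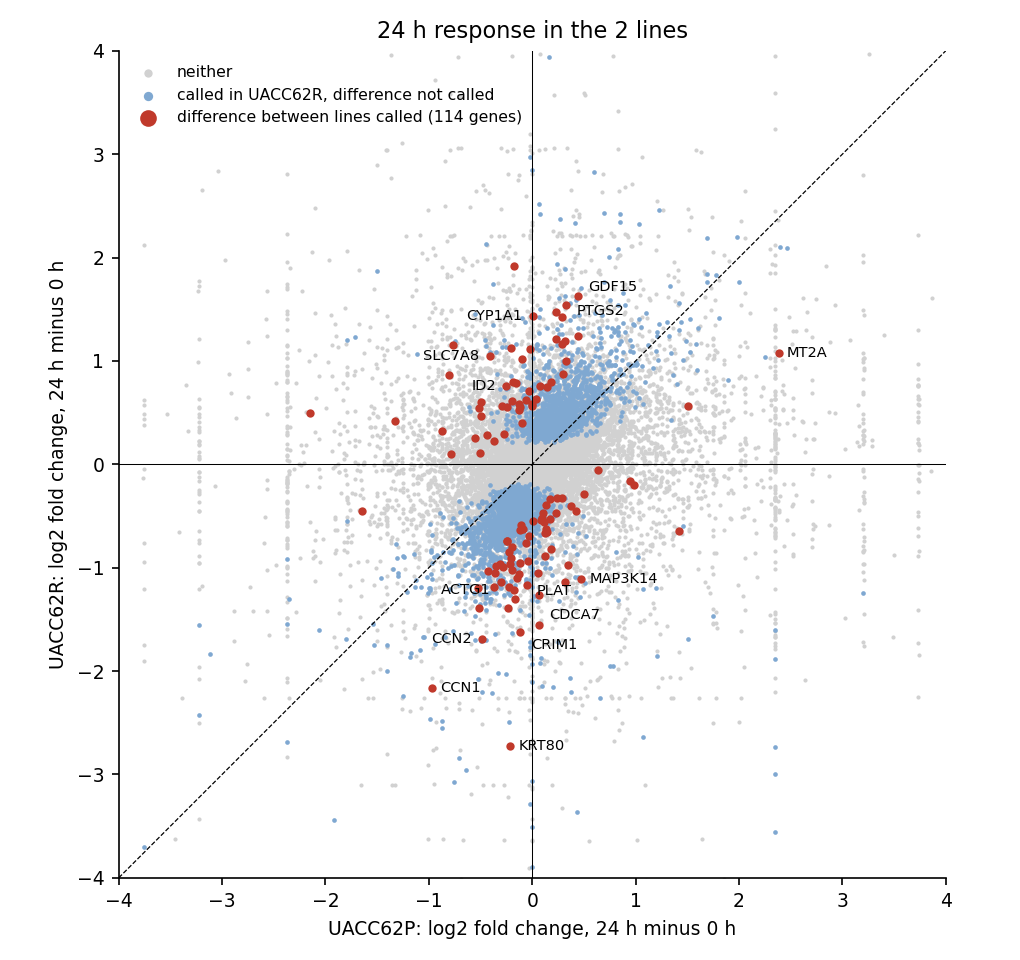
Log2 change from 0 h to 24 h in UACC62P (x axis) against that in UACC62R (y axis) for each tested gene, with the 114 genes whose change differed between the lines in red, other genes called in UACC62R in blue and the diagonal dashed. KRT80, CRIM1 and CDCA7 lie near 0 in UACC62P and well below 0 in UACC62R, and MT2A lies below the diagonal on the rising side; 136 genes lie outside the axes.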

How the data were processed

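Single 50 bp reads of stranded poly(A) libraries came from an Illumina HiSeq instrument, per the labels' protocols. HTSeq 0.6.1, HISAT2 2.1.0, Trimmomatic 0.33, FastQC 0.11.5, bcl2fastq 2.19.0 and build hg19 are named, without roles, in the submitters' processing notes. The authors deposited raw read counts per Ensembl gene for each of 16 libraries, with no normalization, and 5 summary lines per file that stayed out of all sums. Strand setting of the counting: not given in the sources used here. Overlapping and antisense genes are uncertain for that reason, and reads aligned to several places were not counted.

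Groups came from the labels. After filterByExpr and TMM scaling, 15 libraries were fitted with 1 mean per group by edgeR's quasi-likelihood test (edgeR 4.0.16, limma 3.58.1, R 4.3.3), with Benjamini-Hochberg adjustment over all 20280 genes and calls at an adjusted p under 0.05. A standard error is the log2 change divided by the square root of F. The 0 h libraries are shared by the 2, 6 and 24 h comparisons. The steps were tested on simulated data. Promoters came from RefSeq (GRCh38.p14).

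The genes named are the 15 called each way with the largest log2 change at mean log2 CPM 2 or more, without overlap between times, the 8 each way with the largest change in CPM, 8 each way for the other comparisons, up to 4 called members of each list each way, and a fixed set of regulators. A list with the members named from it alone is not reported here. The rule passed over pseudogenes, unnamed clones and antisense and intergenic RNAs. Members and lists were chosen with earlier results of these data known, as was the omission of the library labelled UACC62P 2 h replicate 1.

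Libraries with the same replicate number deviated from their group means together: over 8273 genes the correlation was 0.174 to 0.718 for 21 pairs of groups and 0.663 for UACC62R at 0 and 24 h. The pairing comes from these correlations, since no label states it, and the fit with the replicate number as a block is an alternative. The others were 16 libraries, UACC62R alone, only the libraries compared, library size and RLE scaling (the size factors of DESeq2), no filter, a CPM minimum of 1, DESeq2 1.42.0 and each library left out in turn.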

Additional observations from a re-analysis of the deposited data

Results flagged for a closer look

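The difference between the 24 h responses of UACC62R and UACC62P was called by edgeR's interaction test at 34 of the genes that the naming rule singled out. Each is given here as the log2 change in UACC62R minus that in UACC62P. List members outside that rule, such as the replication genes with a called difference counted above, are not among the 34. None of these calls was kept with the library that resembled UACC62R restored, as stated above. Fits without 1 library were examined for the difference only in the genes singled out by size above. Among cytoskeletal, adhesion and matrix genes the differences were KRT80 -2.51, CRIM1 -1.51, TLN2 -1.45, AMOTL2 -1.33, FBN1 -1.32, CCN2 -1.20, CCN1 -1.19, PLAT -1.11, ACTG1 -0.83, TPM1 -0.82, ITGAV -0.79, KRT18 -0.79, VCL -0.70 and ACTB -0.63. KRT80, a keratin, was under 0.4 CPM in all 4 UACC62P libraries at 0 and 24 h, so that its difference rests on UACC62R. KRT18, another keratin, rose in UACC62P by 0.50 and was not called in UACC62R (-0.29). In signalling, metabolism and transcription the negative differences were CDCA7 -1.62, MAP3K14 -1.58, MT2A -1.30, MTHFD2 -0.62, FOSL1 -0.61 and TYRO3 -0.56.

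Positive differences, where the change in UACC62R was the higher, were BMF 1.68, SLC7A8 1.46, CYP1A1 1.43, RAB5IF 1.33, PREX1 1.25, PTGS2 1.21, CCN3 1.19, GDF15 1.19, PHACTR1 1.19, ID2 1.00, H2BC21 0.99, MGP 0.67, CRELD2 0.60 and CTSL 0.57. BMF, a BH3-only protein that promotes apoptosis, stood at 2.64 and 3.01 CPM untreated and 4.51 and 5.77 CPM at 24 h in UACC62R (0.87 ± 0.23, adjusted p = 0.018, lost without 0 h replicate 1, 0 h replicate 2 or 24 h replicate 2 at 0.099, 0.077 and 0.12), and changed by -0.81 in UACC62P. CRELD2 and CTSL rose in UACC62R and changed by 0.04 and -0.01 in UACC62P.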

How the results depend on the processing

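Counts below are genes higher, then lower. For 24 h against 0 h, all 16 libraries gave 171 and 173, only the 4 libraries compared 753 and 847, the replicate block 2230 and 2668, and leaving out 1 library 583 to 1178 and 668 to 1633. For 24 h against 6 h the same settings gave 62 and 96, 458 and 590, 2016 and 2475, and 363 to 900.0 and 601 to 1385. For the difference of response they gave 0 and 0 (260 and 371 at an unadjusted p under 0.05), 12 and 26, 358 and 464, and 1 to 50 and 10 to 87, no filter gave 264 and 310, DESeq2 167 and 232, and a CPM minimum of 1 gave 98 lower. The cause was not tested, other than that fewer samples or a wider spread enter some of these fits: the common dispersion was 0.00985 in 15 libraries, 0.0622 in 16 and 0.00425 with the block. Of 204 named genes called at 24 h against 0 h, 49 were called in 16 libraries, 163 in the 4 libraries alone, 204 with the block and 202 by DESeq2, and 125 whichever of the 4 libraries was left out. The pairing by block added 7 of 19 named genes that were not called, among them COL1A1, KRT18 and NDUFA10 (adjusted p = 0.02, 0.019 and 0.03), beside those given above. Changes of sign were confined, among named genes and these settings, to uncalled genes: with 1 library left out TAGLN ranged from -0.59 to 0.16, HSF1 from -0.11 to 0.054, MTF1 from -0.16 to 0.084 and MRTFB from -0.27 to 0.20, and MRTFB was 0.0015 with library size scaling. The share of calls that were higher was 44.1%, and 42.3 to 49.7% in the other 9 fits. Of 5748 genes with a mean under 1 CPM 1.22% were called, against 20.1% of the others.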
